A study of Mus musculus with 16 samples.

Results

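The genes described here are 9 genes that build the spiral ganglion, the cluster of neurons that carries sound signals from the hair cells of the cochlea to the brainstem, or that make and receive the neurotrophins these neurons depend on. They were listed by name as Bdnf, Ntf3, Ntrk2, Ntrk3, Neurog1, Neurod1, Isl1, Prox1 and Runx1, all 9 were found in the gene annotation, and they are 9 of the 21755 protein-coding genes annotated on chromosomes 1 to 19 and X. For each, the chromatin loops of the newborn mouse cochlea were collected that touch the gene, that end within 100 kb of its start site (the 5′ end of the annotated gene), or that have the gene between their ends. Of the 6798 loops in the whole list, 26 had an end in a gene of the list or within 100 kb of its start site and are called linked loops, 18 enclosed a whole gene and are called spanning loops, and 5 did both, so that 39 loops were described in all.

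Whole cochleae of C57Bl/6 mice, taken on the day of birth per the sample labels (P0) and on that day or the next per the series text (P0/1), were profiled by Micro-C, which cuts crosslinked chromatin down to single nucleosomes and ligates fragments that were near each other when the cells were fixed. About 600000 cells per library were crosslinked with disuccinimidyl glutarate and then formaldehyde, and 4 replicates were merged before loops were called. The study text calls replicate 4 technical and the others biological, while its supplement calls all of them biological. By that supplement, replicate 4 had more read pairs than any other replicate. There was a single tissue, a single age and no treated or mutant group, so the data hold no contrast between conditions. A loop is a pair of 10 kb bins, its anchors, that met more often than their surroundings, and it comes with a false discovery rate (FDR), below 0.1 for every listed loop, and with the scale at which the loop was detected. Loops were called after merging, so the list used here holds no value per replicate, and the depth behind the list is unknown from the values used here. The cochlea holds hair cells, supporting cells, neurons, glia, blood vessels and connective tissue, and a contact that is frequent in few cells cannot be told apart from a contact that is weak in many. The loop list holds no expression values, so the tissue could not be checked against marker genes.

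Neurotrophins are secreted proteins that keep neurons alive and guide their fibres, and each binds a receptor tyrosine kinase of the Trk family on the neuron. In the inner ear, brain-derived neurotrophic factor (Bdnf) and neurotrophin 3 (Ntf3) come mainly from the sensory epithelium, and ganglion neurons carry their receptors TrkB (Ntrk2) and TrkC (Ntrk3). The neurons themselves arise from otic progenitors that switch on Neurog1 and then Neurod1, while Isl1, Prox1 and Runx1 act in later steps of neuronal or sensory cell identity.

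The start sites of 8 of the 9 genes lay closer to a loop anchor than the median protein-coding start site did. An anchor lay within 100 kb of the start site of 8 of the 9 genes, beside 62.7% of all protein-coding genes, and the exception was Runx1. An anchor bin overlapped the gene itself in 6 of 9 (Bdnf, Ntf3, Ntrk2, Ntrk3, Isl1 and Runx1), beside 24.1% of all protein-coding genes. The median length was 52.7 kb over the 9 genes and 17.4 kb over all protein-coding genes. Long genes meet more bins, and among genes of at least 100 kb the share with an anchor inside was 68.6%, while all 3 long genes of the list (Ntrk2, Ntrk3 and Runx1) had at least 1. Length below 100 kb was not allowed for. The start site itself was in an anchor bin in 3 of 9 (Ntf3, Ntrk2 and Isl1), beside 7.10% of all protein-coding genes. With the start sites of all annotated transcripts counted, the number was 6 of 9 (Bdnf, Ntrk3 and Runx1 in addition), beside 12.0%. For Ntrk3 this rests on 1 of its 20 transcripts, which is not annotated as protein-coding. Bdnf has 11 annotated transcripts and Runx1 has 7, and the number of transcripts per gene was not allowed for. The median distance from start site to nearest anchor was 7838 bp over the 9 genes and 56646 bp over all protein-coding genes. At least 1 loop spanned 7 of 9 genes, beside 28.1%, and the exceptions were Bdnf and Ntrk3. The 100 kb limit separated an anchor 86751 bp from the start site of Neurod1, the farthest one counted, from an anchor 120714 bp from that of Prox1, the nearest one left out that did not lie in a gene of the list. With loops of FDR below 0.01 alone, an anchor overlapped 3 of the 9 genes (beside 14.5% of all protein-coding genes), 1 start site was in an anchor (3.45%), 5 genes had an anchor within 100 kb (41.3%) and the median distance was 51989 bp (152411 bp over all). With anchors widened by 1 bin on each side 6 start sites were in an anchor, beside 17.7% of all protein-coding genes.

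**Figure D1:**
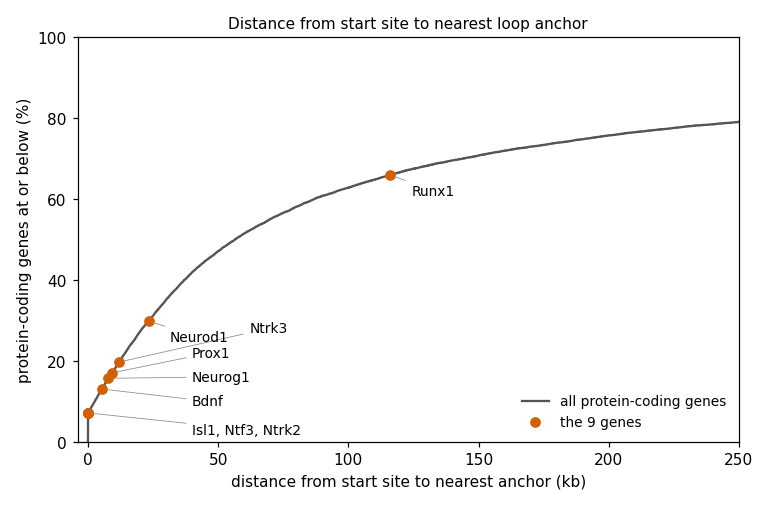
Share of the 21755 protein-coding genes (y axis, percent) whose start site lies at or below a given distance from the nearest loop anchor (x axis, kb; 0 means inside an anchor bin), with the 9 genes marked as points on the curve. Isl1, Ntf3 and Ntrk2 sit at 0, and Runx1 is the farthest at 116149 bp.

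Bdnf, the ligand of TrkB, was linked by 2 long loops that ran in the same direction. The gene covers chr2:109674700-109727007 on the + strand (GRCm38), and its start site was 5301 bp from the nearest anchor. That anchor, chr2:109680001-109690000, lay in an intron and was joined over 800 kb to chr2:108880001-108890000 (FDR 0.0421). The next bin, chr2:109690001-109700000, was joined over 990 kb to chr2:108700001-108710000 (FDR 0.0348). Of the 11 annotated Bdnf transcripts 5 start in this second bin, all of them protein-coding, and 5 others start in the bin just before the first anchor. Bdnf is transcribed from several promoters that splice different first exons to a shared coding exon, and the anchor pair thus lay between and on its start sites. Neither far anchor overlapped an annotated gene, and the nearest protein-coding start site to both was that of Kif18a, a kinesin motor of mitotic chromosomes, at 390738 bp and 570738 bp. Mettl15, a mitochondrial RNA methyltransferase, and Kif18a lay wholly between the anchors of both loops. No loop spanned the whole gene, but both of these loops had its start site between their anchors. On the other side the nearest anchor began 182994 bp beyond the end of the gene.

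Ntf3, the ligand of TrkC, had its start site inside an anchor, with all 3 of its annotated transcripts starting there. The gene lies at chr6:126101412-126166910 on the − strand, and the anchor was chr6:126160001-126170000. From this bin 1 loop reached 540 kb to an anchor in Vwf, the gene of von Willebrand factor (FDR 0.0170), and another reached 210 kb to an anchor in Ano2, which encodes a calcium-activated chloride channel (FDR 0.0171). The neighbouring bin inside the gene, chr6:126150001-126160000, was joined in the opposite direction over 250 kb to chr6:126400001-126410000, where no gene is annotated (FDR 0.0203). Loops from these neighbouring bins therefore ran both ways from the 5′ end of Ntf3. It was spanned by 2 loops of 800 kb and 850 kb (FDR 0.0148 and 0.00289) that both began in Vwf and ended where no gene is annotated, and both enclosed Ano2 along with Ntf3.

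Ntrk2, which encodes TrkB, had 4 linked loops, and 3 of them began at its 5′ end. The gene covers chr13:58806569-59133970 on the + strand, and 8 of its 10 annotated transcripts start in the anchor chr13:58800001-58810000. That anchor was joined to chr13:59370001-59380000 over 570 kb (FDR 0.0128) and to chr13:59170001-59180000 over 370 kb (FDR 0.0971). The first held no annotated gene, and the second lay within the long noncoding RNA gene Gm34354 and overlapped another, Gm47359. The next bin, chr13:58810001-58820000, formed a loop of 260 kb that ended inside Ntrk2 at chr13:59070001-59080000 (FDR 0.00508), so that both ends lay in introns of the same gene. A further anchor in an intron, chr13:59100001-59110000, was joined over 170 kb to chr13:59270001-59280000 (FDR 0.0640). The gene was enclosed by a spanning loop of 730 kb from chr13:58630001-58640000 to chr13:59360001-59370000 (FDR 0.00143), and it was the sole protein-coding gene inside. The other spanning loop, of 860 kb, ended in Agtpbp1, a deglutamylase of tubulin, and had an FDR of 0.0269.

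Ntrk3, which encodes TrkC, is the longest of the 9 genes at 562 kb (chr7:78175959-78738012, − strand), and no loop spanned it. Its linked loops followed each other along the chromosome without overlapping. An intragenic loop of 300 kb joined chr7:78260001-78270000 to chr7:78560001-78570000 (FDR 0.0893), and a loop of 170 kb joined chr7:78580001-78590000 to chr7:78750001-78760000, which lies 11989 bp beyond the annotated start site (FDR 0.0748). These loops thus ended on either side of the bin chr7:78570001-78580000, in which 8 of the 20 annotated Ntrk3 transcripts start, 5 of them protein-coding. The 5′ end of the gene that was used as its start site belongs to transcripts without a protein product, and the bin between the loops was picked out after the values were seen. The third loop, of 90 kb (FDR 0.00446), lay outside the gene and joined Mrps11, a mitochondrial ribosomal protein gene, to the bin of the microRNA gene Mir7-2, with Det1, a component of a ubiquitin ligase, between. It had the lowest FDR of the 3, and the loops with an anchor in Ntrk3 both had an FDR above 0.05.

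**Figure D2:**
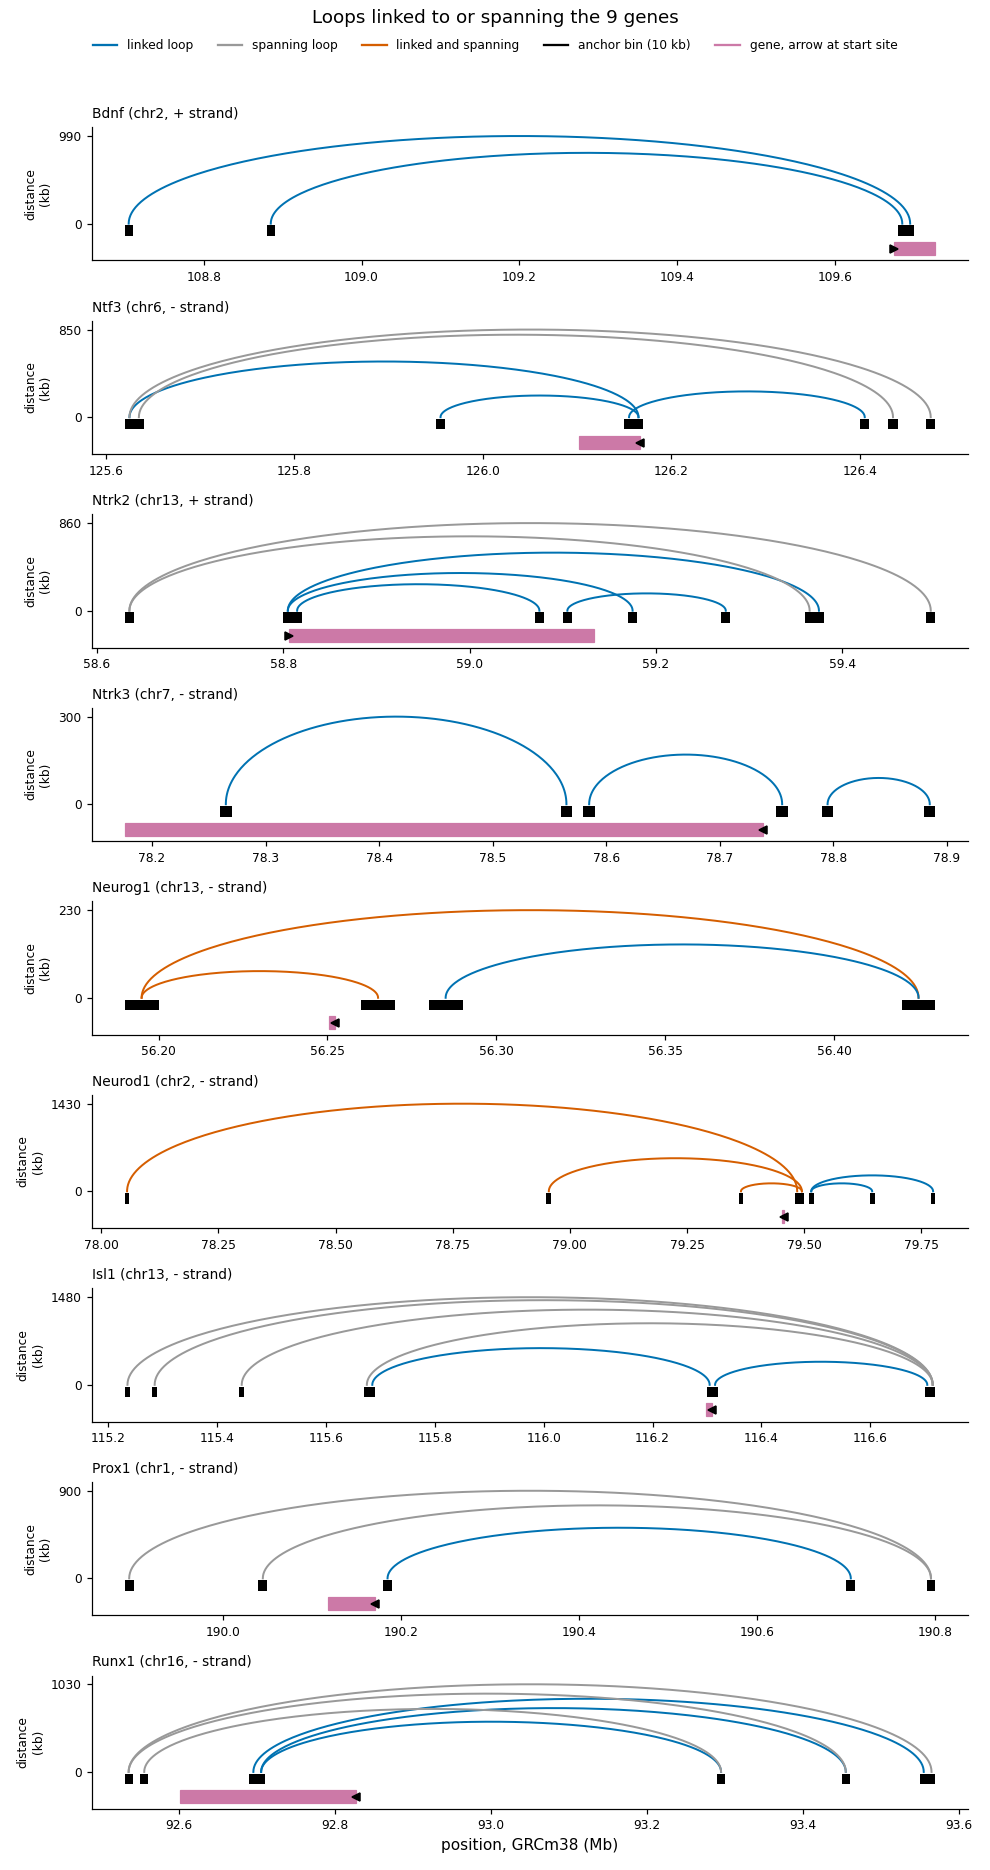
Maps of the 9 loci on GRCm38 (x axis, Mb), 1 panel per gene, with the gene as a pink bar and an arrow at its start site. Black boxes are 10 kb anchor bins and each arc is a loop whose height is its distance (y axis, kb), blue for linked, grey for spanning and orange for loops that do both; no arc spans Bdnf or Ntrk3.

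Neurog1, the basic helix-loop-helix factor that commits otic progenitors to the neuronal fate, sat in the smallest loop found for any of the 9 genes. The single-transcript gene of 1686 bp (chr13:56250478-56252163, − strand) lay between chr13:56190001-56200000 and chr13:56260001-56270000, anchors 70 kb apart (FDR 0.00160), and 98.2% of all listed loops were longer. No other protein-coding gene lay inside. With anchors widened by 1 bin on each side this loop no longer enclosed the gene. The left anchor was also joined over 230 kb to chr13:56420001-56430000 (FDR 0.00499), a bin with the start site of Gm3045, and this loop enclosed the chemokine gene Cxcl14 as well. The 140 kb loop from the end of Cxcl14 to the same bin had an FDR of 2.64e-06, the lowest of the 26 linked loops, and 0.485% of listed loops had a lower one. The start site of Neurog1 was 7838 bp from the nearest anchor, and no anchor overlapped the gene.

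Neurod1, a basic helix-loop-helix factor that acts after Neurog1 in the differentiation and survival of these neurons, had 5 linked loops, the highest number among the 9 genes at the 100 kb window. At 50 kb it had 3 and Ntrk2 had 4, and at 200 kb both had 6. The gene (chr2:79452521-79456751, − strand) contained no anchor, and its start site was 23250 bp from the nearest one. The neighbouring bins chr2:79480001-79490000 and chr2:79490001-79500000 held the right ends of 3 loops that spanned the gene, over 1430 kb (FDR 0.00139), 540 kb (FDR 2.02e-04) and 130 kb (FDR 0.0880). Some 53250 bp from the start site, chr2:79510001-79520000 held the left ends of 2 loops that ran the other way, to Itprid2, whose product binds inositol trisphosphate receptors, over 130 kb (FDR 0.00138) and to Ppp1r1c, an inhibitor subunit of protein phosphatase 1, over 260 kb (FDR 5.48e-04). Loops on the side of Neurod1 and loops on the far side therefore met within a stretch of 4 bins without sharing an anchor. The tightest spanning loop began in Cerkl, the ceramide kinase-like gene linked to retinal degeneration, and had Neurod1 as the sole protein-coding gene wholly inside. The annotated Cerkl gene, chr2:79330543-79456785 on the same strand, contains the whole of Neurod1. The start site of Cerkl, at position 79456785, is beside that of Neurod1 at 79456751. The annotated start sites of both genes thus lay in that loop, while the body of Cerkl crossed its left anchor. Itga4, an integrin subunit gene, and the whole of Cerkl lay inside the 540 kb loop, and Ube2e3, a ubiquitin-conjugating enzyme gene, was added in the 1430 kb loop.

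Isl1, a LIM homeodomain factor of sensory neurons and of the developing sensory epithelium, stood alone in a region poor in genes. No other protein-coding start site lay within 500 kb of its own, beside a median of 4 over the 9 genes and 16 over all protein-coding genes. Its 5 annotated transcripts all start in the anchor chr13:116300001-116310000, which was joined over 620 kb to chr13:115680001-115690000 (FDR 0.00175). The next bin, 312 bp from the start site, was joined over 390 kb in the other direction, to chr13:116700001-116710000 (FDR 0.0318). Neither partner overlapped an annotated gene. The 4 loops that spanned Isl1 (chr13:116298281-116309689, − strand) shared the right anchor chr13:116710001-116720000 and measured 1040, 1270, 1430 and 1480 kb, with FDR of 0.00223, 9.28e-04, 0.0385 and 0.00111. Isl1 was the sole protein-coding gene inside each of them, the widest included, and 1.53% of listed loops were longer than that one.

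Prox1, a homeodomain factor of supporting cells and of some ganglion neurons, had a single linked loop. It joined chr1:190180001-190190000, 9287 bp from the start site and inside the antisense gene Prox1os, over 520 kb to the 3′ end of Rps6kc1, a ribosomal S6 kinase-like gene (FDR 0.0543). The gene (chr1:190118035-190170714, − strand) held no anchor. It was spanned by loops of 750 kb (FDR 0.00345) and 900 kb (FDR 0.0579) with a shared right anchor in Rps6kc1, and the left anchor of the longer one lay in Smyd2, a lysine methyltransferase gene. Prox1 was the sole protein-coding gene wholly inside both.

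Runx1, a Runt domain factor that marks part of the type I ganglion neurons, was the gene farthest from an anchor by its annotated 5′ end, at 116149 bp, and the sole one without an anchor within 100 kb in the list as deposited. With FDR below 0.05 Prox1 was farther, at 120714 bp, and with FDR below 0.01 Bdnf, Ntf3 and Prox1 were farther, at 235301, 303091 and 120714 bp. It has promoters far apart, and 4 of its 7 transcripts, 3 of them protein-coding, start in the anchor chr16:92690001-92700000 inside the gene (chr16:92601466-92826149, − strand). This bin was joined over 860 kb to chr16:93550001-93560000 (FDR 0.0492). Its neighbour chr16:92700001-92710000, in an intron, was joined over 590 kb to chr16:93290001-93300000 (FDR 5.90e-04) and over 750 kb to chr16:93450001-93460000 at the start of the noncoding gene 1700029J03Rik (FDR 0.0489). All 3 ran past the annotated 5′ end of Runx1 in the direction of higher coordinates. The spanning loops, of 740, 920 and 1030 kb (FDR 0.0261, 0.0266 and 0.0420), had Runx1 as their sole protein-coding gene, and 2 of them began in Clic6, an intracellular chloride channel gene.

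Several features of the loops collected by the rule were shared by many of the loci. They were drawn from the same linked and spanning loops and are not independent of the rule. The 9 genes had a median of 3 linked and 2 spanning loops each, beside 1 and 0 over all protein-coding genes. The part of this in the counts was not tested. The count of sole protein-coding genes was not among the main results fixed in advance, and the other features were looked for after the values were seen. The genes were listed with earlier results of these data known. Among the 7 spanned genes, 6 were the sole protein-coding gene wholly inside their tightest spanning loop (all but Ntf3), beside 25.1% of the 6118 spanned genes of the genome. In alternatives chosen after seeing the data, the count was 5 of 7 with FDR below 0.05 (26.2%), where the tightest loop of Neurod1 is the 540 kb one, 4 of 6 with FDR below 0.01 (29.2%) and 5 of 7 with anchors widened by 1 bin (25.4%), where that of Neurog1 is the 230 kb one. The tightest loop of the 7 had a median distance of 740 kb, beside 280 kb over all spanned genes. These genes also lie in gene-poor surroundings, by the median of 4 start sites within 500 kb given above, and the part of that in the counts was not tested. Neighbouring anchor bins, in the gene or within 100 kb of the start site, were present at 6 of 9 genes (Bdnf, Ntf3, Ntrk2, Neurod1, Isl1 and Runx1), beside 14.2% of all protein-coding genes. At Ntf3 and Isl1 the loops of the neighbouring bins ran in opposite directions, and at Bdnf, Ntrk2, Neurod1 and Runx1 in the same direction.

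Linked loops often ended where a spanning loop ended. This was so for 5 of the 7 spanned genes (Ntf3, Ntrk2, Neurog1, Isl1 and Runx1), counting linked loops that did not themselves span the gene and far anchors in the same or the next bin, beside 33.9% of all spanned genes. At Isl1 both far anchors, to the left and to the right, lay 1 bin inside the anchors of the 1040 kb loop that spans the gene. At Runx1 all 3 far anchors coincided with anchors of spanning loops or lay next to them. The far anchor in Vwf was the same bin for a linked and a spanning loop of Ntf3, and at Ntrk2 the far anchor at 59370001 was next to the right anchor of the 730 kb loop. Agtpbp1, Smyd2 and Clic6, which held anchors of spanning loops, and Kif18a, Mettl15, Det1, Itga4 and Ube2e3, which lay between the anchors of other loops or nearest to a far anchor, were named after the values were seen, as were the noncoding genes at anchors.

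The far anchors are by definition bins away from the gene they are linked to. Of 20 distinct far anchors of the linked loops, 10 overlapped no annotated gene of any kind, beside 28.0% of the far anchors of all protein-coding genes, counted as 24008 pairs of gene and far anchor, and 29.6% of all 11828 anchor bins. A protein-coding start site lay in 1 of the 20, that of Gm3045 near Neurog1, beside 3370 of those 24008 pairs and 11.9% of all anchor bins. Vwf, Ano2, Itprid2, Ppp1r1c and Rps6kc1 were met by far anchors in their bodies and not at their start sites. The linked loops had a median distance of 335 kb and a median FDR of 0.0171, beside 280 kb and 0.0113 over the whole list, and 11 of the 26 had an FDR under 0.01, beside 48.0% of all loops. The smallest detection scale had called 23 of the 26, beside 71.7% of all loops. The 18 spanning loops had a median distance of 855 kb and a median FDR of 0.00422, beside 330 kb and 0.0108 over the 3878 loops that span any protein-coding gene. A median of 45.5% of bases in the 25 anchor bins at the 9 genes were G or C, beside 44.1% over all anchor bins.

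The DNA of the anchors was searched on both strands for the CTCF consensus, 14 letters that describe the binding preference of the protein CTCF, with at most 1 mismatch. CTCF halts the cohesin complex that extrudes loops, and anchors of a loop often carry CTCF sites that point towards each other, called convergent. A match here is a description of the letters and not a site. A match was present in 12 of the 25 anchor bins at the 9 genes and in 28 of the 62 anchor bins of all their linked and spanning loops, beside 48.4% of all anchor bins and 21.4% of the 255803 bins of the genome with at least 9000 known bases. Of the 39 loops 10 had a direction at both anchors, and in all 10 the matches were convergent, beside 68.3% of the 1502 such loops in the whole list. Some of the 10 share an anchor, so they are not independent. Counted by gene, the tightest spanning loop was convergent for 3 of 7 (Ntrk2, Isl1 and Prox1), beside 15.5% of all spanned genes, and the other 4 had no direction at 1 anchor or both. At Neurog1 this was because its right anchor held equally good matches on both strands. Allowing at most 2 mismatches also gave 3 of 7, beside 24.9% of all spanned genes with a convergent tightest loop. With no mismatch allowed, 1 of the 7 loops, that of Ntrk2, kept a direction at both anchors and was convergent, beside 2.47% of all spanned genes with a convergent tightest loop under that rule. With matches taken from 1 bin on each side as well, 4 of the 7 had a direction, with Ntrk2, Isl1 and Prox1 convergent and both matches of Runx1 pointing the same way, beside 27.9% of all spanned genes with a convergent tightest loop.

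The matches of these 3 loops are given because they are the best matches in the bins that enclose a gene of the list most tightly, each read on the strand of the match with the 14 matched bases in capitals. For Ntrk2 they lie at chr13:58639131-58639160 on the + strand and chr13:59365640-59365669 on the − strand of GRCm38, both outside annotated genes and both without a mismatch. For Isl1 they lie at chr13:115679770-115679799 on the + strand and chr13:116715005-116715034 on the − strand, outside annotated genes and with 1 mismatch each. For Prox1 they lie at chr1:190045978-190046007 on the + strand, outside annotated genes and with 1 mismatch, and at chr1:190797358-190797387 on the − strand, in a noncoding exon of Rps6kc1 and without a mismatch.
Ntrk2 left anchor: tggatgctCCAGCAGATGGCGCatacttat
Ntrk2 right anchor: acctgtcaCCAGCAGAGGGCGCtctgggga
Isl1 left anchor: tcagctatCCAGTAGGTGGCAAtcttccct
Isl1 right anchor: tagggtggACAGCAGGTGGCAGcaaaggcc
Prox1 left anchor: ccaagcaaCCAGCAGATGTCAGcagctcat
Prox1 right anchor: acatttgaCCAGCAGGTGGCAGtataccat

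Convergent matches were also present at 3 linked loops with an anchor inside a gene of the list, and these are shown because the match lies in the gene itself. In Ntf3 an intron held the match at chr6:126154468-126154497 on the + strand, and its partner lies at chr6:126405932-126405961 on the − strand outside annotated genes. In Ntrk2 both matches of the intragenic loop lie in introns, at chr13:58816452-58816481 on the + strand and chr13:59077624-59077653 on the − strand, the latter also in an exon of the unclassified transcript Gm34245. In Runx1 an intron held the match at chr16:92706615-92706644 on the + strand, and its partner at chr16:93454433-93454462 on the − strand lies in an intron of 1700029J03Rik. The Runx1 partner matched without a mismatch and the other 5 with 1 mismatch each.
Ntf3 intron: aaaagtggACAGTAGATGGCAGtctgtccc
Ntf3 partner: tctcctagCCAGAAGGGGGCAGcagcccct
Ntrk2 first intragenic anchor: tgatggtgCCAGGAGGTGGCAGacccttca
Ntrk2 second intragenic anchor: tccaaagaCCAGTAGCTGGCACtgcctttc
Runx1 intron: gttctgggCCACTAGGGAGCAGaagtcttt
Runx1 partner: ctttgtggCCACTAGGTGGCGCtcatgcgc

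Other genes of the same pathways were taken from 4 lists of 40 genes in all, and 11 of the 40 had a start site in an anchor bin, beside the 7.10% of all protein-coding genes. Of 8 neurotrophins, receptors and co-receptors, 2 did, the sorting receptors Sort1 and Sorcs2, and Kidins220, a scaffold that binds Trk receptors, was the next nearest at 14925 bp. Of 10 adaptors and effectors that pass on Trk signals, Plcg1, a phospholipase, and Gab1, a docking protein, had a start site in an anchor, and Sos1, an exchange factor for Ras, was 10453 bp from one. Of 10 regulators of neurogenesis, Sox2, a factor of neural and sensory progenitors, and Insm1, a zinc finger factor of nascent neurons, had a start site in an anchor, and Gata3, needed for ear and ganglion development, missed one by 34 bp. In this list 9 of 10 genes were spanned by a loop, beside 28.1% of all protein-coding genes, 2 of 8 neurotrophins, receptors and co-receptors, 5 of 10 adaptors and effectors and 5 of 12 ganglion marker genes, and 4 of the 9 spanned regulators were the sole protein-coding gene in their tightest spanning loop, beside 25.1% of all spanned genes. Its median distance of 8.41 kb from start site to anchor was the lowest of the 4 lists. Of 12 genes that mark spiral ganglion neurons or their subtypes, 5 had a start site in an anchor: Calb2, which encodes calretinin, Lypd1, Prph, which encodes the filament protein peripherin, Nefl, the light neurofilament, and Slc17a7, a vesicular glutamate transporter. The median distance over these 12 was 40.2 kb, and over all 40 genes it was 21.4 kb.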

How the data were processed

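Loops were taken from the list deposited for 4 merged Micro-C replicates of cochlea. The submitters' processing notes name BWA, Juicer and mm10, and the study's methods name Mustache as loop caller at a resolution of 10 kb. The q-value (FDR) of each loop was computed and deposited by the authors. A score, the scale of detection, was also deposited by the authors for every loop and served here as a filter. Genes came from GENCODE vM21 and sequence from GRCm38.p6 (the mm10 build), and all anchors ended within its chromosomes. Distances, overlaps and consensus matches were computed with Python 3.11.15 and numpy 2.4.6, and figures with matplotlib 3.10.9. A distance was 0 for a start site inside a bin and otherwise ran to the nearest base of the bin. A gene was spanned when it lay wholly between the inner ends of the anchors. Loop distance ran from bin start to bin start. The CTCF consensus was written from general knowledge, the best match of a bin set its direction, and bins with equal matches on both strands were left without one. The measures and the motif search were tested on simulated data. No test was run across samples, and shares over all genes or loops stand beside each count. Named were the 9 genes, protein-coding genes at anchors of linked loops or inside tightest spanning loops, and, in the 4 pathway lists, genes with a start site in an anchor and the 3 nearest per list. Further genes were named after their values were seen, as said beside them. Members and lists were chosen with earlier results of these data known. Alternatives were stricter FDR limits, the smallest detection scale, wider anchors, all transcript start sites, other windows, other definitions of spanning and other motif rules. ATAC and CUT&RUN libraries and calls at other resolutions were not analysed here.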

Additional observations from a re-analysis of the deposited data

How the results depend on the processing

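Of 37 alternative values of the counts and the median, 29 stayed within 1.5 times the count or 10 kb of the distance reported, and 8 did not. Some of this was fixed in advance. Anchors widened by 1 bin can shift a distance by at most 10 kb. The median of 7838 bp is below that margin, so its fall to 0 with wider anchors and with all transcript start sites counted as unchanged. With FDR below 0.01, which left 3261 of 6798 loops, an anchor overlapped 3 genes, 1 start site lay in an anchor, 5 genes had an anchor within 100 kb, the median distance was 51989 bp and 11 loops were linked; the shares over all genes fell too (14.5%, 3.45% and 41.3%, with a median of 152411 bp). Start sites in an anchor numbered 6 with anchors widened by 1 bin on each side (17.7% of all genes) and 6 with all transcript start sites (12.0%). With no mismatch allowed, 1 gene (Ntrk2) had a convergent tightest loop (2.47% of spanned genes), and the loops of the other 6 had no direction at both anchors. Genes spanned numbered from 6 with FDR below 0.01 (15.1% of all genes) to 9 with the start site alone spanned (35.3%). Of 153 alternative values of single genes, 33 moved beyond these margins. With FDR below 0.05 Prox1 had no linked loop, Ntrk3 had 1 and Ntrk2 had 2, and with FDR below 0.01 Bdnf, Ntf3 and Prox1 had none. No paired analysis was possible because a single merged loop set was used, without values for each library. The depth of the libraries, which limits which loops could be called, is unknown from the list.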
